A study of Mus musculus with 9 samples.

Results

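The branched-chain amino acid breakdown genes described here are 10 genes of mouse brown adipose tissue, taken by name from the mitochondrial pathway that degrades leucine, isoleucine and valine: Bcat2, Bckdha, Bckdhb, Dbt, Bckdk, Mccc1, Mccc2, Auh, Acad8 and Hibadh. They are 10 of the 16937 genes in the deposited tables, they were picked by name, by no cutoff on measured values but with earlier results of these data known, and all 10 were listed and tested in every comparison. RNA sequencing was done on brown adipose tissue of adult male and female mice on the C57Bl/6J background, with 3 libraries in each of 3 groups. WT RT were wild-type mice kept at 23 °C, WT Cold were wild-type mice exposed to 4 °C over 8 h, and GCN2 KO Cold were whole body Gcn2-/- mice given the same cold exposure. All were housed singly at 23 °C for 5 days beforehand, with the hour of killing matched between RT and cold mice. The allele is absent from the whole body, so brown adipocytes were not the only cells to lack the kinase, and the data hold no GCN2 KO group kept at 23 °C. GCN2 is a kinase that senses amino acid shortage and sets off the integrated stress response.

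Brown adipose tissue burns fuel to make heat through uncoupling protein 1, and branched-chain amino acids are among the fuels it takes up from blood in the cold. In the mitochondrion an aminotransferase first removes the amino group, and the branched-chain ketoacid dehydrogenase complex then commits the carbon skeleton to oxidation. That complex is switched off by phosphorylation through the kinase Bckdk and switched on by the phosphatase Ppm1k. Beyond it the leucine, isoleucine and valine routes separate and end in acetyl-CoA or in propionyl-CoA, which feeds the citric acid cycle.

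Over the 16608 genes with reads known in all 9 libraries, each library held between 27056987 and 30765219 reads. The lowest read number of any of the 10 genes in any library was 1268, for Acad8. Levels are given as CPM, the reads of a gene per 1000000 reads of the library over those 16608 genes. Fold changes come from limma on log2(normalised count + 1), the normalised count being the reads divided by a size factor of the library, and a gene was called when its Benjamini-Hochberg adjusted p over all genes was under 0.05. The tissue label was checked against Ucp1, the uncoupling protein that defines brown adipocytes, which ranged from 3593 to 9694 CPM. Eif2ak4, which encodes GCN2, was at 11.9, 12.7 and 11.8 CPM in libraries labelled GCN2 KO Cold, at 6.46, 8.31 and 8.34 CPM in WT Cold and at 11.1, 12.6 and 13.0 CPM in WT RT. The libraries labelled GCN2 KO Cold were thus not lower for this gene, with a log2 fold change of 0.78 between the cold groups (SE 0.15, limma adjusted p = 0.0932), and were called higher by DESeq2 (adjusted p = 0.00271) and with all 3 groups in the fit (log2 0.60, limma adjusted p = 0.0356). A sample of this group has a title that names both genotypes and no cold, while its genotype and temperature labels give GCN2 KO and 4 °C, and which library it is cannot be told from the codes. The part of the gene removed is not given in the sources used here, and a count over the whole gene does not check it, so every direction below is that of the libraries labelled GCN2 KO Cold. Libraries also differed in sex-linked transcripts. Ddx3y, from the Y chromosome, was at 7.02 and 10.5 CPM in library 3 of WT Cold and library 3 of GCN2 KO Cold. It was between 84.8 and 144 CPM in the other 7. Xist, from the X chromosome, was at 131 and 127 CPM in those same libraries 3, and between 11.2 and 43.5 CPM in the other 7. No WT RT library had so low a level of Ddx3y or so high a level of Xist. The RT libraries bear codes with a different first part from the cold ones, so cold and that set of libraries cannot be told apart. In bulk tissue, fewer cells of a type and less RNA per cell cannot be told apart either.

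Promoter windows of Bcat2, which had the largest change of the 10 genes, and of Bckdk, the kinase of the complex, are printed here. Both are the 250 bases before the RefSeq start (GRCm38.p6, not the GRCm39 build of the deposited files), on the plus strand of chromosome 7, at chr7:45569903-45570152 for Bcat2 and chr7:127903823-127904072 for Bckdk, and capitals mark a match to one of the motifs searched.
Bcat2: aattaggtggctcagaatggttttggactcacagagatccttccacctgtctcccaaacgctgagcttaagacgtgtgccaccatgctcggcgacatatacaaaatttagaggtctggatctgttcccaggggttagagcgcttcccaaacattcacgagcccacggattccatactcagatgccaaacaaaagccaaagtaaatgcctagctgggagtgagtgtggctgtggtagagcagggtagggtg
Bckdk: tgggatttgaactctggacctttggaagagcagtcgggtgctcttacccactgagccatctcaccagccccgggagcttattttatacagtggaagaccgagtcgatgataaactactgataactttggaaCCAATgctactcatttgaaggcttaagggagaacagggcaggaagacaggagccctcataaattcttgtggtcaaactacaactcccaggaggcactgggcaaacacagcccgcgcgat
The Bcat2 window held none of the motifs and lay within annotated exons of the antisense gene 0610005C13Rik over all 250 bases. The Bckdk window held 1 CCAAT and no annotated exon. RefSeq windows were found for 9 of the 10 genes (not Dbt), 2 for Bcat2 and for Bckdhb. The motifs searched on both strands were the amino acid response element TGATGNAA, to which ATF4 of the integrated stress response binds, the cAMP response element TGACGTCA, the ERR site TCAAGGTCA, and CCAAT and GGGCGG. None of the 9 genes held the first 3, which were present in 3.4%, 1.56% and 0.375% of 32536 distinct windows of that length. CCAAT was present in a window of 6 of the 9 genes, and in 33.8% of all windows. GGGCGG was present in a window of 5 of the 9 genes, and in 33% of all windows. A gene counted when any of its windows matched, and Bcat2 and Bckdhb had 2 each. The shares by gene and by window are thus not of the same unit and give no excess. These are matches of letters and show nothing of binding.

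Of the 10 genes, 2 rose and 2 fell in WT Cold against WT RT. Bcat2 and Dbt rose, Acad8 and Bckdk fell, and Hibadh, Bckdhb, Auh, Mccc1, Mccc2 and Bckdha were not called. Across all 16679 genes tested, 13.6% rose and 14.1% fell (9.41% and 17.4% when scaled to total reads, with the same counts of 2 and 2 among the 10). With all libraries in, the share of the 10 genes that moved was thus near that of all genes. The calls of Bcat2, Dbt, Acad8 and Bckdk held in every alternative fit. Over all genes fewer were called without some of the libraries, as given at the end. The median log2 fold change of the 10 was -0.0080, against 0.0029 over all genes. The groups did not overlap for 6 of the 10 genes (4 higher, 2 lower), against 45.5% of all genes. With the study's further rule of an absolute log2 fold change over 1, Bcat2 alone was left, 1 of 10 against 8.14% of all genes, and with all 3 groups in the fit none was. In the plot of levels by library, genes of a single pathway go in both directions.

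**Figure D1:**
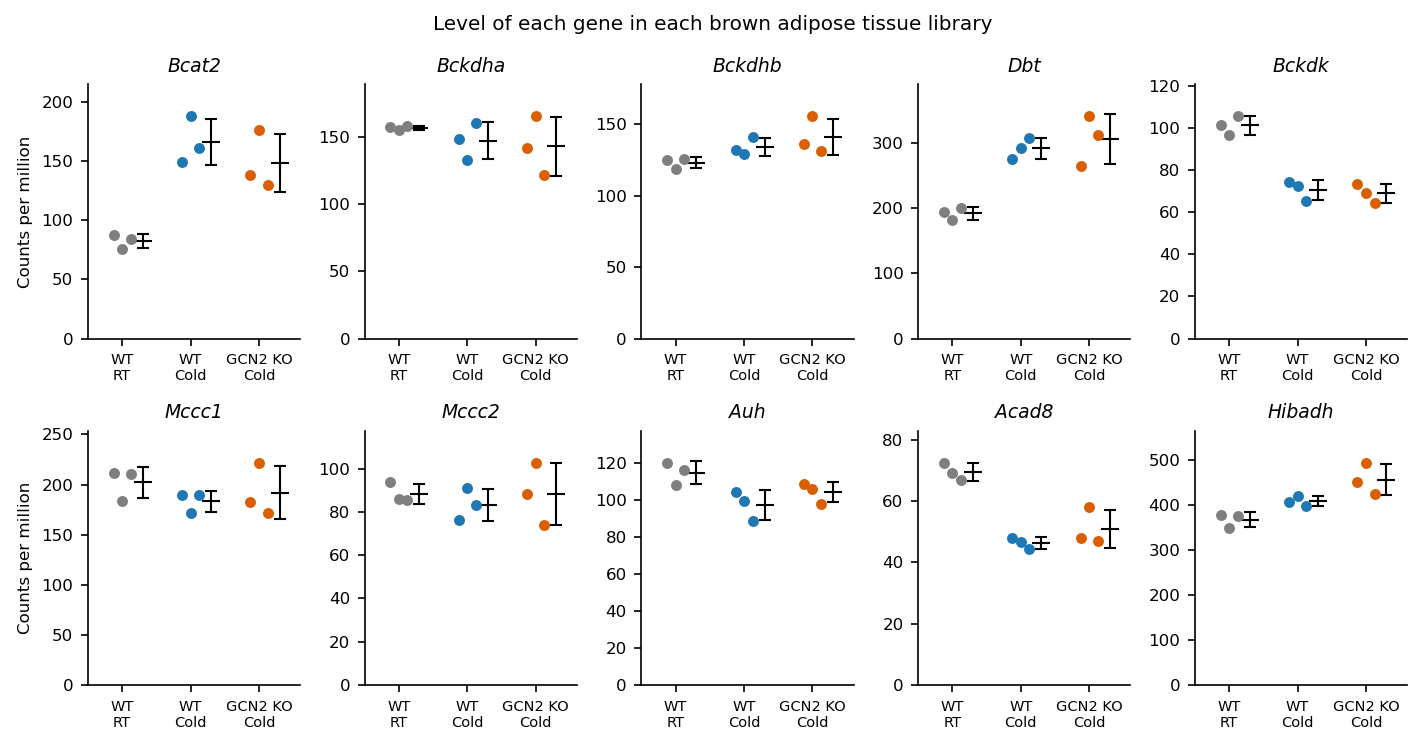
Level of each of the 10 genes in CPM (vertical axis, counts scaled to the library total, from 0) in the 3 libraries of WT RT, WT Cold and GCN2 KO Cold (points), with the mean and SD beside them. Bcat2 lies at 75.4 to 87.7 in WT RT and 150 to 188 in WT Cold, Bckdk and Acad8 are lower in all 6 cold libraries, and Bckdha, Mccc1 and Mccc2 overlap between groups.

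Bcat2, the mitochondrial aminotransferase of the first step, was at 87.7, 75.4 and 84.1 CPM in WT RT, at 150, 188 and 161 CPM in WT Cold, and at 138, 176 and 130 CPM in GCN2 KO Cold. All 6 cold libraries lay above the 3 RT libraries, and both cold groups overlapped. Bcat2 was 2.13-fold higher in WT Cold than at RT (95% interval 1.78 to 2.55, log2 1.09, SE 0.11, limma adjusted p = 0.000735). The antisense gene 0610005C13Rik covers 15.9% of the Bcat2 exons (GENCODE M21), and whether reads were counted by strand is not given in the sources used here. It held 127 to 296 reads in a library and Bcat2 at least 2321, and the effect of the shared exons on either count was not tested. Bcat1, the cytosolic aminotransferase, was at 0.739 to 2.78 CPM over the 9 libraries and was not called in any comparison with all libraries. Without library 2 of GCN2 KO Cold it was called lower in GCN2 KO Cold against WT RT (limma adjusted p = 0.0376). Per kilobase of the principal transcript, Bcat2 averaged 46.5 ± 3.55 CPM in WT RT and 93.7 ± 11.1 CPM in WT Cold, while Bcat1 averaged 0.695 ± 0.113 and 0.633 ± 0.395 (SD, n = 3).

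The subunits of the ketoacid dehydrogenase complex did not move alike in the cold. Dbt, the E2 core that carries the lipoyl group, was at 194, 181 and 200 CPM in WT RT, 276, 292 and 307 CPM in WT Cold, and 265, 341 and 312 CPM in GCN2 KO Cold. The cold libraries were all above the RT ones, and Dbt was 1.61-fold higher in WT Cold than at RT (95% interval 1.39 to 1.86, log2 0.69, SE 0.09, limma adjusted p = 0.00188). Bckdha, the E1 alpha subunit and the target of the kinase, was at 157, 155 and 158 CPM in WT RT, 148, 133 and 160 CPM in WT Cold and 142, 165 and 121 CPM in GCN2 KO Cold. The groups overlapped on normalised counts, and the fold of 0.992 between WT Cold and WT RT had a 95% interval of 0.854 to 1.15. Its exons overlap those of B3gnt8 on the opposite strand over 61.7% of their length, and the effect of this on its count and on its level per kilobase was not tested. B3gnt8 held 218 to 348 reads in a library, and Bckdha at least 3282. Bckdhb, the E1 beta subunit, was at 125, 119 and 126 CPM in WT RT, 132, 129 and 141 CPM in WT Cold and 136, 156 and 131 CPM in GCN2 KO Cold. It did not overlap between WT Cold and WT RT but was not called (log2 0.21, SE 0.08, limma adjusted p = 0.103). Dld, the E3 subunit that this complex shares with pyruvate dehydrogenase, had a log2 fold change of 0.07 (limma adjusted p = 0.522).

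Control genes of the complex had values of opposite sign, of which that of the kinase passed the test. Bckdk, the kinase that inhibits it, was at 101, 96.8 and 106 CPM in WT RT, 74.2, 72.6 and 65.2 CPM in WT Cold, and 73.3, 69.1 and 64.4 CPM in GCN2 KO Cold. Every cold library was below every RT library. The level of Bckdk in WT Cold was 0.740 of that at RT (95% interval 0.647 to 0.846, log2 -0.44, SE 0.08, limma adjusted p = 0.00796). Ppm1k, the phosphatase that reverses its action, was at 21.7, 18.8 and 20.2 CPM in WT RT, 21.7, 28.0 and 40.5 CPM in WT Cold and 19.0, 24.0 and 22.8 CPM in GCN2 KO Cold. Its WT Cold libraries were spread widely, and on the CPM scale the lowest of them was level with the highest RT library. The log2 fold change of 0.61 (SE 0.22) was not called by limma (adjusted p = 0.0772) but was by DESeq2 on the recovered reads (adjusted p = 0.0164). Single libraries decided this value, which was 0.84 and called without library 1 of WT Cold (limma adjusted p = 0.0219), and 0.35 and not called without library 3 of WT Cold.

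**Figure D2:**
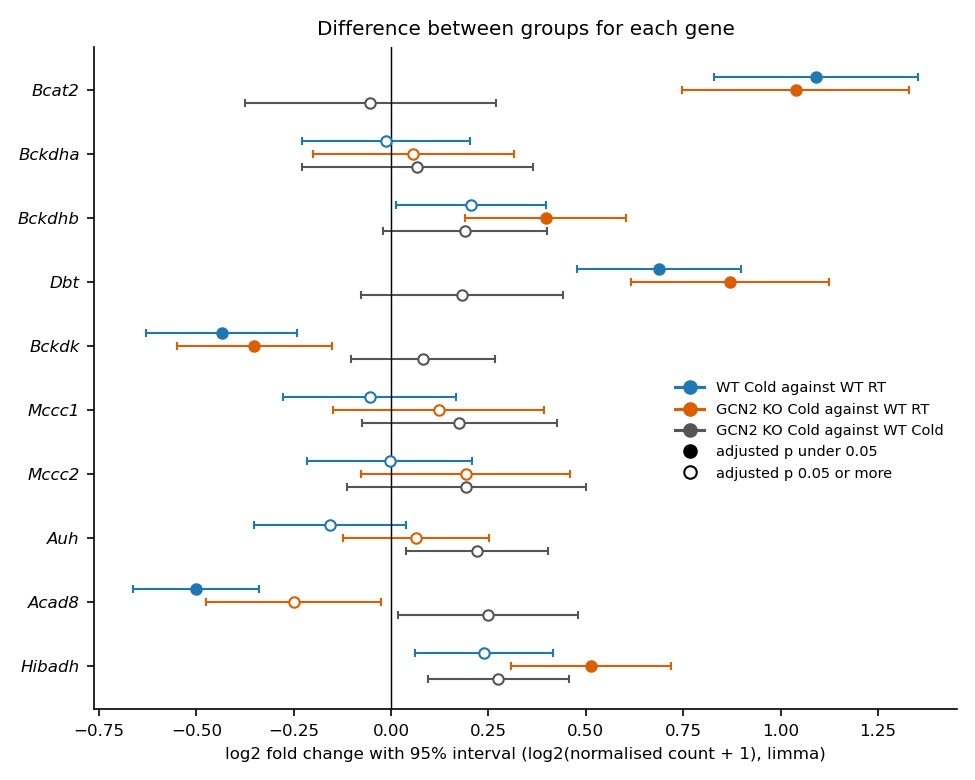
Log2 fold change (horizontal axis, log2(normalised count + 1)) of the 10 genes with 95% intervals in WT Cold against WT RT (blue), GCN2 KO Cold against WT RT (orange) and GCN2 KO Cold against WT Cold (grey), with filled points where the limma adjusted p is under 0.05. Bcat2, Dbt and Bckdk are filled in both comparisons with WT RT, and no grey point is filled.

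Ratios within a library do not depend on scaling between libraries, so 5 pairs of genes were compared over 3 comparisons (15 tests). With 3 libraries against 3, the exact two-sided permutation test cannot go below p = 0.1. The log2 ratio of Bckdk over Bckdha was -0.63, -0.68 and -0.58 in WT RT and -1.0, -0.87 and -1.30 in WT Cold, lower by 0.42 with no overlap (exact permutation p = 0.1, adjusted 0.188). The log2 ratio of Ppm1k over Bckdk was -2.22, -2.36 and -2.39 in WT RT and -1.77, -1.37 and -0.69 in WT Cold, higher by 1.05 with no overlap (exact permutation p = 0.1, adjusted 0.188). The spread of this balance of phosphatase and kinase transcripts was widest in WT Cold, with an SD of 0.55 against 0.09 in WT RT and 0.25 in GCN2 KO Cold. Dbt over Bckdha, a pair chosen after its values were seen, went from 0.29 ± 0.06 in WT RT to 0.99 ± 0.13 in WT Cold, with 1.10 ± 0.24 in GCN2 KO Cold (log2 ratio, SD, n = 3). Bckdha over Bckdhb went from 0.35 ± 0.03 in WT RT to 0.13 ± 0.08 in WT Cold, also with no overlap (exact permutation p = 0.1, adjusted 0.188). Per kilobase of transcript, the level of Dbt was 0.703 ± 0.03 times that of Bckdha in WT RT and 1.14 ± 0.10 times it in WT Cold (SD, n = 3). In contrast, Mccc1 over Mccc2 was 1.19 ± 0.11 in WT RT, 1.14 ± 0.21 in WT Cold, with 1.12 ± 0.08 in GCN2 KO Cold (log2 ratio, SD, n = 3), and the groups overlapped in every comparison. Between GCN2 KO Cold and WT Cold all 5 ratios overlapped.

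**Figure D3:**
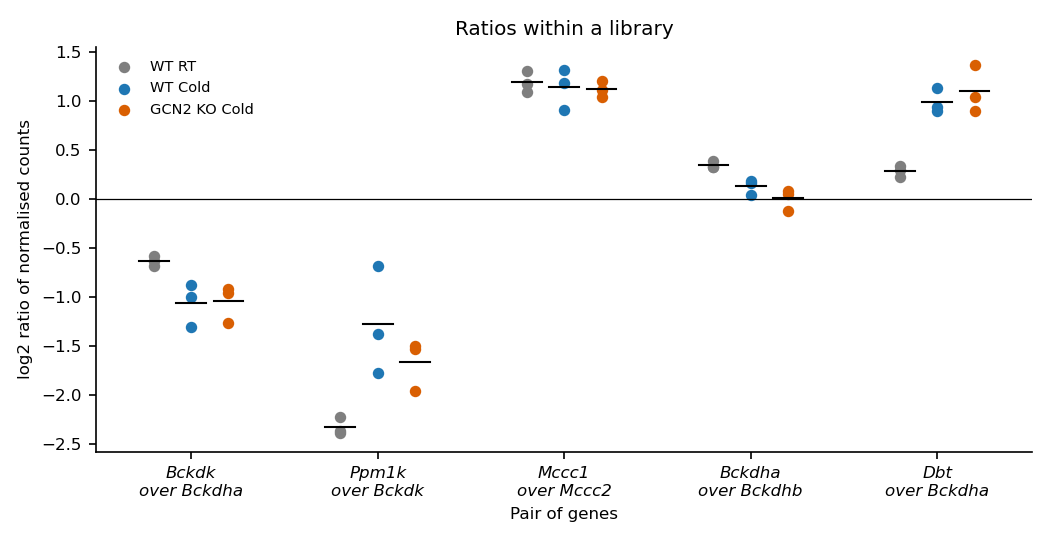
Log2 ratio of normalised counts within a library (vertical axis) for 5 pairs of genes (horizontal axis), with a point for each library and a bar at the mean of WT RT, WT Cold and GCN2 KO Cold. Bckdk over Bckdha is lower and Ppm1k over Bckdk and Dbt over Bckdha are higher in all 6 cold libraries than in the 3 RT libraries, while Mccc1 over Mccc2 overlaps.

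On the leucine route none of the 3 members was called in WT Cold against WT RT. Mccc1 and Mccc2 form 3-methylcrotonyl-CoA carboxylase, Mccc1 being the subunit that carries biotin. Mccc1 was at 212, 184 and 211 CPM in WT RT, 189, 171 and 189 CPM in WT Cold and 182, 222 and 171 CPM in GCN2 KO Cold, with a fold of 0.963 between WT Cold and RT (95% interval 0.825 to 1.12). Mccc2 was at 93.8, 86.1 and 85.3 CPM in WT RT, 76.1, 90.9 and 83.0 CPM in WT Cold and 88.3, 103 and 74.2 CPM in GCN2 KO Cold, with a fold of 0.997 (95% interval 0.861 to 1.16). Both overlapped between all groups on normalised counts. Auh, the hydratase that follows the carboxylase, was at 120, 108 and 116 CPM in WT RT, 104, 99.5 and 88.6 CPM in WT Cold and 109, 106 and 98.2 CPM in GCN2 KO Cold. WT Cold was below WT RT on the CPM scale in every library, but the groups overlapped on normalised counts, and Auh was not called (log2 -0.16, SE 0.08, limma adjusted p = 0.204) except with all 3 groups in the fit (log2 -0.24, adjusted p = 0.0491). Ivd, the dehydrogenase before the carboxylase and not among the 10 genes, rose by a log2 of 0.37 (SE 0.09, limma adjusted p = 0.0163), a call that was lost without library 2 of WT Cold (adjusted p = 0.0650) or library 2 of WT RT (adjusted p = 0.0535) and with all 3 groups in the fit (adjusted p = 0.144).

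On the valine route, Acad8 was called lower in every alternative fit of WT Cold against WT RT, and the calls of its neighbours depended on the fit. Acad8, the isobutyryl-CoA dehydrogenase, was at 72.5, 69.1 and 66.8 CPM in WT RT, 48.0, 46.6 and 44.3 CPM in WT Cold, and 47.9, 58.1 and 46.9 CPM in GCN2 KO Cold. The WT Cold libraries lay close together and below every RT library, at 0.707 of the RT level (95% interval 0.632 to 0.790, log2 -0.50, SE 0.07, limma adjusted p = 0.00221). Hibch, which acts after Acad8 and before Hibadh, fell by 0.30 on the log2 scale (SE 0.08, limma adjusted p = 0.0214), a call that was lost when any of 4 libraries was left out (1 or 2 of WT Cold, 1 or 3 of WT RT, adjusted p up to 0.0758). Hibadh, the 3-hydroxyisobutyrate dehydrogenase, was at 377, 349 and 376 CPM in WT RT, 407, 420 and 397 CPM in WT Cold, and 450, 493 and 425 CPM in GCN2 KO Cold. Every WT Cold library was above every RT library, and the log2 fold change of 0.24 (SE 0.08) missed the threshold (limma adjusted p = 0.0531). Without library 3 of WT RT it passed, at a log2 of 0.29 (limma adjusted p = 0.0484), as it did with a minimum mean normalised count of 50 (adjusted p = 0.0446). Aldh6a1, which acts on the semialdehyde that follows, rose by a log2 of 0.40 (SE 0.11, limma adjusted p = 0.0330), a call that was lost when scaled to total reads (log2 0.31, adjusted p = 0.0712) and without library 1 or 2 of WT Cold or 2 or 3 of WT RT (adjusted p up to 0.108).

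Levels of the 10 genes can be ordered per kilobase of the principal transcript. In WT RT Hibadh was highest at 201 ± 8.72 CPM per kilobase (SD, n = 3). Auh, Bckdhb, Bckdha and Mccc1 followed, with means of 87.1, 83.7, 82.6 and 82.3 that did not differ beyond their spread. Dbt stood next at 58.1 ± 2.87, before Bcat2 at 46.5 ± 3.55 and Mccc2 at 41.6 ± 2.21, whose libraries overlapped. The kinase Bckdk at 29.7 ± 1.28 and Acad8 at 24.3 ± 1.01 were lowest (SD, n = 3). On these lengths the mean of Hibadh was highest and that of Acad8 lowest in both cold groups too. In WT Cold they were 224 ± 6.38 and 16.2 ± 0.666 CPM per kilobase (SD, n = 3). In GCN2 KO Cold the libraries of Acad8 (16.4 to 20.3) overlapped those of Bckdk (18.9 to 21.5). The order turned on the length chosen. Per kilobase of all annotated exons joined, Bckdha was highest in WT RT at 82.6 ± 0.817, followed by Bckdhb at 68.2 ± 2.21 and Dbt at 57.3 ± 2.83, while Hibadh was at 36.1 ± 1.56, Acad8 at 16.8 ± 0.696 and Auh lowest at 12.0 ± 0.633 (SD, n = 3).

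The log2 fold changes between GCN2 KO Cold and WT Cold ranged from -0.05 for Bcat2 to 0.27 for Hibadh. None of the 10 genes was called by limma, edgeR or DESeq2, and 3 of 10 had an unadjusted limma p under 0.05 (Hibadh, Auh and Acad8), against 15.3% of all 16312 genes. Over all genes 0.178% were called higher and 0.227% lower (0.0674% and 0.319% when scaled to total reads) by limma, 0.11% and 0.159% by edgeR, and 1.45% and 1.84% by DESeq2. The same 3 genes were the ones whose groups did not overlap, against 22.0% of all genes. Hibadh had a log2 fold change of 0.27 (95% interval 0.09 to 0.46, limma adjusted p = 0.177), Acad8 one of 0.25 (95% interval 0.02 to 0.48, adjusted p = 0.295) and Auh one of 0.22 (95% interval 0.04 to 0.40, adjusted p = 0.247). For Bcat2 the 95% interval of the fold was 0.771 to 1.20, for Dbt 0.948 to 1.36 and for Bckdk 0.931 to 1.20. The median over the 10 genes was 0.19, with 9 of 10 above 0, against -0.0031 over all genes. Scaling to total reads shifted all genes by a median of -0.12 in this comparison. The median of the 10 was then 0.068 and 7 of 10 were above 0, with Bckdha and Bckdk turned negative and no unadjusted p under 0.05. Over all genes the median was then -0.12, with 5335 of 16312 above 0. Medians of other mitochondrial lists were 0.19 for 16 citric acid cycle genes and 0.20 for 17 fatty acid oxidation genes, of which limma called 0, with 8 of each list under an unadjusted p of 0.05. Scaled to total reads, those medians were 0.076 and 0.083, with 1 gene of each list under that p.

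Relative to WT RT, GCN2 KO Cold gave 4 genes called higher and 1 called lower. Bcat2 rose by a log2 of 1.04 (SE 0.13, limma adjusted p = 0.000839) and Dbt by 0.87 (SE 0.11, adjusted p = 0.000967). Hibadh rose by 0.51 (SE 0.09, limma adjusted p = 0.00338) and Bckdhb by 0.40 (SE 0.09, adjusted p = 0.0107). Bckdhb was not called when scaled to total reads (log2 0.19, limma adjusted p = 0.0934) or with all 3 groups in the fit (log2 0.19, adjusted p = 0.0744). Bckdk fell by 0.35 (SE 0.09, limma adjusted p = 0.0151). This call was lost without library 3 of WT RT (adjusted p = 0.0518) and with no mean-variance trend (adjusted p = 0.0546). Acad8 had a log2 fold change of -0.25 (SE 0.10, limma adjusted p = 0.0830). It was -0.45 and called when scaled to total reads (adjusted p = 0.00790) and with all 3 groups in the fit (adjusted p = 0.00361). Without library 2 of GCN2 KO Cold it was also called, at -0.35 (limma adjusted p = 0.0200), and without library 3 of that group Mccc2 was called higher, at 0.31 (adjusted p = 0.0482), against 0.19 with all libraries. Over all 16560 genes 16.4% were called higher and 17.8% lower. Scaled to total reads, 3 of the 10 genes were called higher and 2 lower, against 8.97% and 29.1% of all genes. On normalised counts 6 of the 10 genes did not overlap between these groups, against 49.2% of all genes. With the fold rule added Bcat2 alone was left, against 10.6% of all genes. It fell under that fold when scaled to total reads (log2 0.84), with all 3 groups in the fit (0.83), and without library 2 of GCN2 KO Cold (0.90) or library 2 of WT RT (0.96), so that none of the 10 genes was then left. This comparison shares its WT RT libraries with WT Cold against WT RT, so the values stand side by side and their likeness is not a separate result. Scaling to total reads shifted all genes by a median of -0.20 here and of -0.08 in WT Cold against WT RT.

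Libraries within a group differed for many of the 10 genes at once. On normalised counts, WT RT library 2 was lowest of its group for 10 of 10 genes, while it was lowest for 34.6% of all genes, and WT RT library 3 was highest for 8 of 10, against 36.2% of all genes. On the CPM scale these counts were 8 and 4, with WT RT library 1 highest for the other 6 genes. Among the libraries labelled GCN2 KO Cold, library 2 was highest for 8 of 10 genes (32.5% of all genes) and library 3 lowest for 9 of 10 (35.0% of all genes), with the same counts of 8 and 9 on the CPM scale. The summed level of the 10 genes was 1633, 1889 and 1575 CPM in these libraries, against 1604, 1642 and 1637 CPM in WT Cold and 1541, 1424 and 1528 CPM in WT RT. The coefficient of variation of a gene was 5.36% to 16.6% in GCN2 KO Cold, 2.85% to 11.9% in WT Cold and 0.989% to 7.79% in WT RT. Leaving out library 3 of both cold groups, which had little Ddx3y, again gave no call among the 10 genes between the cold groups by limma, and without library 3 of WT Cold the genes called against WT RT were the same 4.

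Other genes of the pathway were taken as a list of 28. In WT Cold against WT RT, 13.6% of all genes rose and 14.1% fell (9.41% and 17.4% when scaled to total reads). Of the 28, 9 rose and 6 fell (7 and 7 when scaled to total reads), with a median log2 fold change of 0.17. Of these 15 calls, 8 held in every alternative fit (Slc7a8, Slc3a2, Slc43a2, Klf15, Hsd17b10, Mcee, Hlcs and Mmab) and 7 were lost under at least 1 (Ivd, Acadsb, Aldh6a1, Hibch, Lias, Lipt1 and Mmaa). The largest rise was that of Slc7a8, a plasma membrane carrier of neutral amino acids. It was at 12.9 to 19.1 CPM in WT RT and 97.4 to 202 CPM in WT Cold (log2 3.18, SE 0.27, limma adjusted p = 0.000409). Slc3a2, the heavy chain that Slc7a8 and Slc7a5 pair with, was at 74.9 to 114 CPM in WT RT and 219 to 301 CPM in WT Cold (log2 1.60, SE 0.18, limma adjusted p = 0.00102). Slc43a2, another such carrier, rose by a log2 of 1.27 (SE 0.15, limma adjusted p = 0.00112). The other carriers of that membrane in the list were not called by limma fitted over the 2 groups. Slc7a5 was at 2.46 to 4.49 CPM in WT RT and 4.94 to 6.98 CPM in WT Cold (log2 0.83, SE 0.27, limma adjusted p = 0.0535), and it was called higher by DESeq2 (adjusted p = 0.0206) and with all 3 groups in the fit (adjusted p = 0.0453). Slc43a1 had a log2 fold change of 0.14 (limma adjusted p = 0.543). Slc25a44, the mitochondrial carrier for branched-chain amino acids, had a log2 fold change of -0.31 (SE 0.11) that was not called (limma adjusted p = 0.0644). Its groups overlapped on normalised counts but not on the CPM scale, at 115 to 136 CPM in WT RT and 90.1 to 109 CPM in WT Cold. It was called lower when scaled to total reads (log2 -0.39, limma adjusted p = 0.0237), with all 3 groups in the fit (adjusted p = 0.00995) and without library 2 of WT RT (adjusted p = 0.0390). Klf15, a transcription factor known to act on branched-chain amino acid breakdown in muscle, rose by a log2 of 1.24 (SE 0.24, limma adjusted p = 0.00849).

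**Figure D4:**
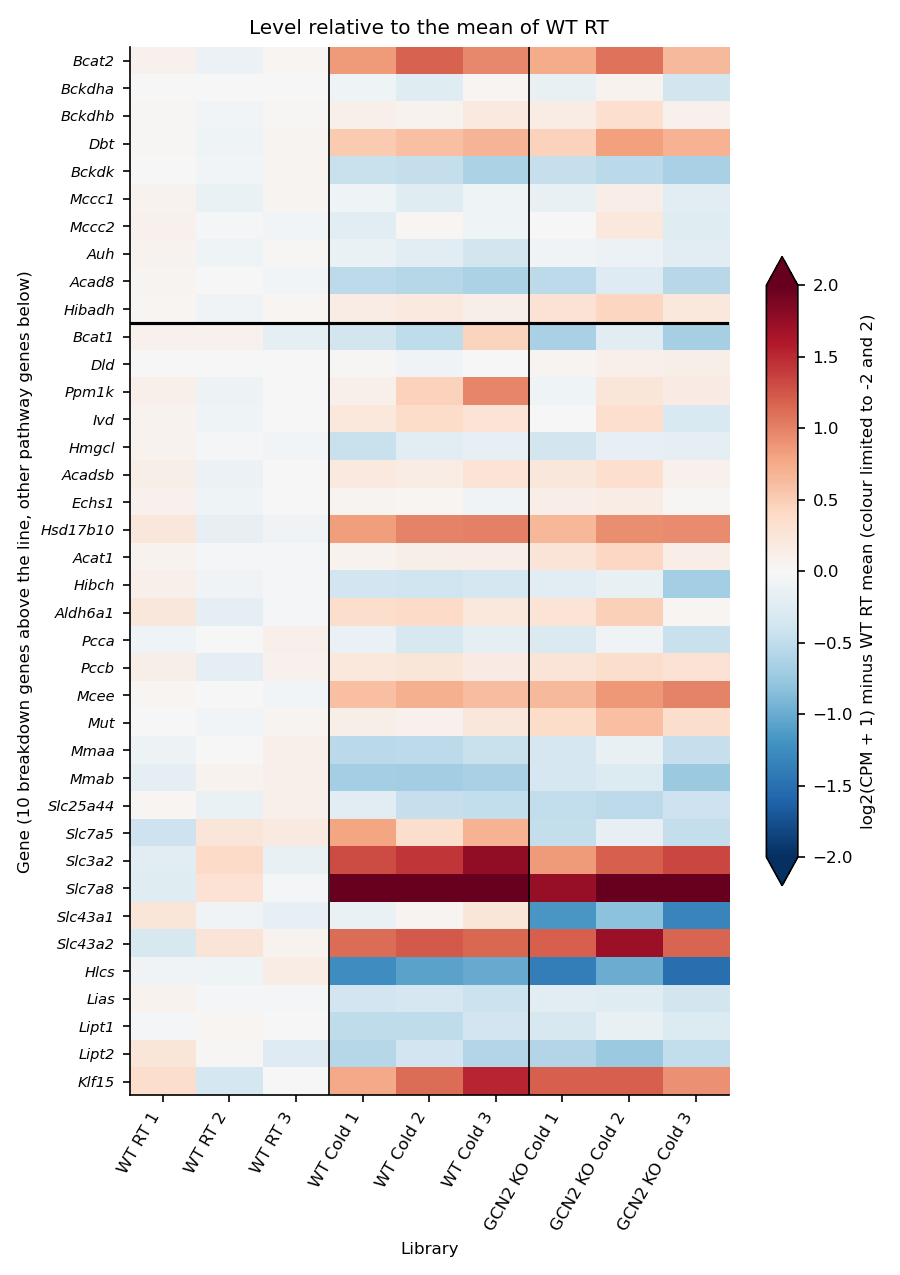
Level of the 10 genes (above the line) and of 28 other pathway genes (below it) in each library, as log2(CPM + 1) minus the mean of WT RT, with red above it and blue below it and colours limited to -2 and 2. Bcat2, Dbt, Hsd17b10, Mcee, Slc3a2, Slc7a8, Slc43a2 and Klf15 are red in all 6 cold libraries, and Bckdk, Acad8 and Hlcs are blue in all 6.

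Among enzymes further along, Hsd17b10 of the isoleucine route rose by a log2 of 1.04 (SE 0.12, limma adjusted p = 0.000971) and Mcee, the methylmalonyl-CoA epimerase, by 0.73 (SE 0.07, adjusted p = 0.000525). Acadsb, the dehydrogenase of the isoleucine route, passed the test narrowly with a log2 of 0.29 (SE 0.09, limma adjusted p = 0.0476). That call was lost when scaled to total reads (log2 0.21, limma adjusted p = 0.0960), by edgeR (adjusted p = 0.0567) and whichever library was left out (adjusted p from 0.0609 to 0.127). Hlcs, which attaches biotin to carboxylases such as Mccc1, fell by 1.19 on the log2 scale (SE 0.17, limma adjusted p = 0.00234). Lias and Lipt1, which make and transfer the lipoyl group that Dbt carries, fell by 0.30 and 0.40 on the log2 scale (limma adjusted p = 0.0188 and 0.0209). Lipt2, which also acts in lipoylation, had a log2 fold change of -0.52 and was not called (limma adjusted p = 0.0656). With all 3 groups in the fit Lipt2 was called lower (log2 -0.51, adjusted p = 0.0332). Mmab and Mmaa, which serve the cobalamin cofactor of methylmalonyl-CoA mutase, fell by 0.61 and 0.43 on that scale (limma adjusted p = 0.00670 and 0.0157). Some of these calls were lost when a library was left out, that of Lias without library 1 of WT Cold or 1 or 3 of WT RT (adjusted p up to 0.0663), that of Lipt1 without library 1 or 2 of WT Cold or 2 or 3 of WT RT (adjusted p up to 0.0749) and that of Mmaa without library 1 or 2 of WT Cold (adjusted p up to 0.0571). Between GCN2 KO Cold and WT Cold limma and edgeR called 0 of the 28, with 13 under an unadjusted p of 0.05 by each. Over all genes 15.3% were under that p by limma. Scaled to total reads, limma called Slc43a1 (adjusted p = 0.0485) and 5 were under that unadjusted p, and with all 3 groups in the fit it called Slc43a1 and Slc7a5 lower (adjusted p = 0.0110 and 0.0360). DESeq2 called Mut (the mutase) higher and Slc7a5 and Slc43a1 lower. Slc7a5, a low gene with 63 reads in its lowest library, was at 6.98, 4.94 and 6.53 CPM in WT Cold. In GCN2 KO Cold it was at 2.31, 3.13 and 2.33 CPM (log2 -1.12, limma adjusted p = 0.0896, DESeq2 adjusted p = 0.00164). Slc43a1 was at 10.2, 11.7 and 13.4 CPM in WT Cold and at 4.45, 5.94 and 3.88 CPM in GCN2 KO Cold (limma adjusted p = 0.0661, DESeq2 adjusted p = 4.94e-05). In GCN2 KO Cold against WT RT, 16.4% of all genes were called higher and 17.8% lower (8.97% and 29.1% when scaled to total reads). Of the 28, 13 were called higher and 2 lower (9 and 8 when scaled to total reads). The 2 were Slc43a1 (log2 -1.05) and Hlcs (log2 -1.31). The 13 were Slc7a8, Slc43a2, Slc3a2, Klf15, Hsd17b10, Mcee, Mut, Pccb, Acat1, Aldh6a1, Acadsb, Echs1 and Dld, of which Slc7a8 had the highest log2 fold change at 2.41 and Dld the lowest at 0.29. Of the 15 calls, 4 were lost under at least 1 alternative, those of Acadsb, Aldh6a1, Echs1 and Dld.

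The pyruvate dehydrogenase complex has kinases and phosphatases of its own and shares Dld with the branched-chain complex. Of 11 genes of that complex and its control, 1 rose and 3 fell in WT Cold against WT RT, with a median log2 fold change of -0.23. Pdk1, an inhibitory kinase, fell by 1.21 on the log2 scale (SE 0.11, limma adjusted p = 0.000490), while Pdk4, another, had a value of -0.29 and was not called (limma adjusted p = 0.338). Without library 3 of WT Cold it was called, at -0.52 (limma adjusted p = 0.0290), and without library 2 of WT Cold its value was -0.11. Pdhb and Pdha1, the E1 subunits, fell by 0.43 and 0.39 on the log2 scale (limma adjusted p = 0.00869 and 0.0183), and their difference from Bckdha and Bckdhb was not tested. The call of Pdha1 was lost without library 2 of WT Cold or library 1 or 3 of WT RT (adjusted p up to 0.0713). Pdp2, a phosphatase, had a log2 fold change of 0.45 (limma adjusted p = 0.0333), and its call was lost when any library other than library 3 of WT Cold was left out (adjusted p up to 0.0902). Of 16 citric acid cycle genes 4 rose and 0 fell, and of 17 fatty acid oxidation genes 2 rose and 1 fell. Scaled to total reads, the counts were 1 and 6 for the pyruvate dehydrogenase list and 1 and 0 for the citric acid cycle. For fatty acid oxidation they were 1 and 3. Over all genes 13.6% rose and 14.1% fell, and 9.41% and 17.4% when scaled to total reads.

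The genes whose pattern over the 9 libraries was most like that of Bcat2 were Sult1a1, Cxxc1, Ei24, Hsd17b10 and Adgrg1. Likeness was the root mean square difference of log2(CPM + 1) relative to the WT RT mean, which was 0.094 for Sult1a1 and 0.15 for Adgrg1. It is a description over libraries of 3 groups, with no test.

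Summed markers of other cell types did not overlap between some of the groups, and no test was made of the sums. The summed level of 15 skeletal muscle markers was 376 to 1582 CPM in GCN2 KO Cold, 2740 to 4585 CPM in WT Cold and 2890 to 3492 CPM in WT RT. All 15 had a lower value in GCN2 KO Cold than in WT Cold. Of these limma called 1, edgeR 0, DESeq2 5, and limma with all 3 groups in the fit 8. The sums overlapped between WT Cold and WT RT. In GCN2 KO Cold against WT RT limma called 13 of the 15 lower, and DESeq2 and edgeR 7 each. Scaled to total reads, and with all 3 groups in the fit, limma called all 15 lower. In WT Cold against WT RT limma and edgeR called 3 of 16 higher and DESeq2 4. With all 3 groups in the fit limma called 0 of 15 there. Summed macrophage markers (8 genes) were at 364 to 534 CPM in WT RT, 201 to 308 CPM in WT Cold and 147 to 225 CPM in GCN2 KO Cold, with 5 of 8 called lower in WT Cold and 7 of 8 in GCN2 KO Cold by limma, each against WT RT. Summed red blood cell markers (5 genes) were at 260 to 345 CPM in WT RT, 572 to 2279 CPM in WT Cold and 1084 to 2081 CPM in GCN2 KO Cold, with 5 of 5 called higher in each cold group against WT RT. Both of these sums overlapped between the cold groups. Those of white adipocytes (5 genes) were at 299 to 346 CPM, 246 to 298 CPM and 174 to 245 CPM, and those of endothelium (6 genes) at 577 to 628 CPM, 647 to 803 CPM and 538 to 640 CPM, in the same order, the last overlapping between GCN2 KO Cold and WT RT. Brown adipocyte markers (12 genes) summed to 20175 to 21932 CPM, 26620 to 28830 CPM and 31446 to 32252 CPM, with 5 called higher and 1 lower in WT Cold and 7 and 0 in GCN2 KO Cold, each against WT RT. Of the white adipocyte markers 1 was called higher and 1 lower in WT Cold and 0 and 1 in GCN2 KO Cold, and of the endothelial markers 2 and 0 in WT Cold and 2 and 2 in GCN2 KO Cold, each against WT RT. Over all genes limma called 13.6% higher and 14.1% lower in WT Cold, and 16.4% and 17.8% in GCN2 KO Cold, each against WT RT. No marker listed was at 0 in every library, and the part of these cells in the values of the 10 genes was not tested.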

How the data were processed

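RNA from brown adipose tissue was enriched with oligo d(T), made into NEBNext Ultra II libraries and sequenced by the authors, who trimmed reads with Trimmomatic (0.36), aligned them with STAR (2.5.2b) and counted unique exon reads with featureCounts of Subread (1.5.2) on GRCm39, per the labels and methods. The 3 deposited tables, 1 for each comparison, hold a signal per gene and library that is the read count divided by a DESeq2 size factor set within that table, called a normalised count here. They also hold the fold changes and p-values of the authors, which were not used. Whole reads were recovered for all values (100%, tolerance 0.01 reads), and CPM was computed from them.

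Each comparison was tested with limma (3.58.1, R 4.3.3, mean-variance trend) on log2(normalised count + 1) over its 2 groups, with Benjamini-Hochberg adjustment over all genes. The fold scale understates changes of low genes. DESeq2 (1.42.0) and edgeR (4.0.16, quasi-likelihood) on recovered reads, other pseudocounts (0.5 and 5), a minimum mean of 50, no trend, CPM scaling, all 3 groups in 1 fit and leaving out each library were alternatives. Ratios were compared by an exact two-sided permutation test. The scripts were tested on simulated counts.

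Library columns carry codes that give the group but not the mouse, so libraries are numbered in code order as names only. The third sample labelled GCN2 KO, whose title names GCN2 KO and WT but no cold, was grouped by its genotype and temperature labels. The labels call the samples biological replicates. Genes named are the 10 members, Bcat1, Ppm1k, Dld, Ivd, Slc25a44 and Klf15, and Pdk4 and Pdha1 with genes called in the pyruvate dehydrogenase list. Any of the other pathway genes called in a comparison (or by DESeq2, added after its values were seen) is named too. Lipt2 is outside this rule and is named beside Lias and Lipt1. Members and lists were chosen with earlier results of these data known. Of the file identifiers 16900 of 16937 were in GENCODE M21 (GRCm38), used for exon overlap and for the length of the principal transcript.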

Additional observations from a re-analysis of the deposited data

How the results depend on the processing

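No paired analysis was possible because the columns carry library codes and no replicate numbers. Each of the 10 genes was refitted under each alternative: in WT Cold against WT RT 131 of these values kept their direction and side of the threshold, 3 gained a call and 6 changed sign, in GCN2 KO Cold against WT Cold 141 were kept and 9 changed sign, and in GCN2 KO Cold against WT RT 123 were kept, 4 gained and 4 lost a call and 9 changed sign. The changes of sign were in values that were not called, and the cause was not tested. With an absolute log2 fold change over 1 required, the genes called higher and lower were 1 and 0 in both comparisons with WT RT. In GCN2 KO Cold against WT RT the genes called lower were 0 with no mean-variance trend, 2 with CPM scaling, 2 with all 3 groups in the fit, and 0 (without WT RT library 3) to 2 (without GCN2 KO Cold library 2) when a library was left out. In WT Cold against WT RT, leaving out a library moved the log2 fold change of Bckdha between -0.095 and 0.062, of Mccc1 between -0.14 and 0.0079 and of Mccc2 between -0.066 and 0.076. In GCN2 KO Cold against WT Cold it moved Bcat2 between -0.18 and 0.040 and Bckdha between -0.043 and 0.26, the latter with both libraries of little Ddx3y left out together, an alternative chosen after seeing the data, which gave 0.025 for Bcat2. With CPM scaling Bckdha was at -0.050 and Bckdk at -0.035, and with all 3 groups in the fit at -0.049 and -0.035. In GCN2 KO Cold against WT RT, Bckdha was at -0.15 with CPM scaling, -0.14 with all 3 groups, and -0.056 to 0.17 with a library left out. CPM scaling gave -0.081 for Mccc1, -0.012 for Mccc2 and -0.14 for Auh, and all 3 groups in the fit gave -0.081, -0.011 and -0.14. Leaving out a library moved the difference in log2 ratio between -0.11 and 0.12 for Bckdk over Bckdha, between -0.13 and 0.070 for Mccc1 over Mccc2 and between -0.017 and 0.22 for Dbt over Bckdha in GCN2 KO Cold against WT Cold, and between -0.14 and 0.062 for Mccc1 over Mccc2 in WT Cold against WT RT. Over all genes, the calls in GCN2 KO Cold against WT Cold were 66 by limma, 6 with no trend, 44 by edgeR, 536 by DESeq2, 428 with all 3 groups in the fit, 168 with that pair of libraries left out and, with 1 library left out, 3 (without WT Cold library 2) to 24 (without WT Cold library 3). In WT Cold against WT RT, 4624 genes were called, and with a library left out 2907 (without WT Cold library 2) to 5679 (without WT Cold library 3), with 3054 without WT Cold library 1 and 3067 without WT RT library 2.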
